A study of Homo sapiens with 78 samples.

Results

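The p53 pathway genes described here are 9 genes chosen by name from the 58388 annotated genes with a quantified transcript. MDM2, MDM4 and CDKN2A encode regulators of p53, CDKN1A and GADD45A act in growth arrest and repair, BAX, BBC3 and PMAIP1 act in apoptosis, and ZMAT3 encodes an RNA-binding zinc finger protein. The estimated counts and the TPM values (abundance per transcript length, scaled to the same total in every well) of each gene's transcripts were summed in each of 78 wells, each meant to hold 1 sorted cell. A375 is a human melanoma line, grown in DMEM, sorted on CD47 into PBS, and Jurkat clone E6-1 is a human T cell leukemia line, grown in RPMI and sorted on CD81 into lysis solution. No cell was given a drug, both lines were fed serum approved for tetracycline-controlled systems, and the sort kept cells that excluded the dead-cell dye 7-AAD. Total RNA libraries were made with 2 stranded kits, one a SMARTer Stranded Total RNA-Seq Kit, version v2 Pico Input Mammalian (#634413), the other the SMART-Seq Stranded Kit (#634444), in 21 A375 and 18 Jurkat wells per kit. No label names a culture, so the wells of a group are cells of 1 sample. Therefore no test was made between the lines or kits, and line, medium, antibody and sorting buffer cannot be told apart.

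p53 is a transcription factor that is held at a low level in unstressed cells. MDM2 marks it for degradation, MDM4 masks its activation domain, and the ARF protein encoded by CDKN2A restrains MDM2. Once stabilized, p53 raises transcription of CDKN1A, which encodes the cyclin-dependent kinase inhibitor p21, of proapoptotic genes and of MDM2 itself, which closes a feedback loop. As background on the lines, A375 carries inactivating CDKN2A mutations, whereas Jurkat lacks the CDKN2A locus and has frameshift mutations in BAX.

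Jurkat wells held 413959.1 to 1443974.7 estimated counts and A375 wells held 909 to 2567265.1. Of the A375 wells, 4 with kit #634413 and 5 with kit #634444 fell below 203424.3 counts, 25% of the median well, and 2 further A375 wells with kit #634413 had under 50% of their counts on protein coding genes. All 18 Jurkat wells of each kit had more counts of T cell markers than of melanocyte and adherent cell markers. Of the A375 wells, 19 and 17 showed the opposite with kits #634413 and #634444, and the other 2 and 4 had no marker counts. Counts were pooled over the wells of a group and divided by the group's counts without ribosomal DNA and spikes, which, scaled to the same total in every group, gives the pooled CPM. Of the pigment cell genes, SOX10 reached 329.7 and 318 CPM in A375 with kits #634413 and #634444, while PMEL, MLANA, DCT and TYR were at 4.53 CPM or less. Intervals in square brackets are 95% exact Poisson intervals for counts, 95% Clopper-Pearson intervals for shares of wells and, conditional on the summed counts, for ratios. They cover counting error only, since the reads carry no molecular identifiers. In pooled values, fewer cells that express a gene and less RNA per cell cannot be told apart, so the share of wells with at least 1 count is given too.

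With both kits, 5 of the 9 genes were at least 2-fold higher in A375 than in Jurkat: CDKN1A, CDKN2A, GADD45A, MDM4 and BBC3. The same held for 25.9% of the 25209 genes with at least 20 counts over all wells. None of the 9 genes was at least 2-fold higher in Jurkat with both kits, against 12.5% of all genes. The median log2 ratio of the 9 genes, A375 over Jurkat, was 1.37 with kit #634413 and 1.18 with kit #634444, beside 0.42 and 0.33 for all genes. Of all genes past 2-fold, 67.4% were higher in A375, which became 77.7% when 4 reference genes set the scale and 57.5% when wells had equal weight. CDKN1A, CDKN2A and GADD45A were also past 4-fold with both kits. MDM4 and BBC3 were close to the 2-fold limit. The 5 became 4 without MDM4 when all wells, shallow ones included, had equal weight, or without BBC3 when only the deeper wells were used.

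**Figure D1:**
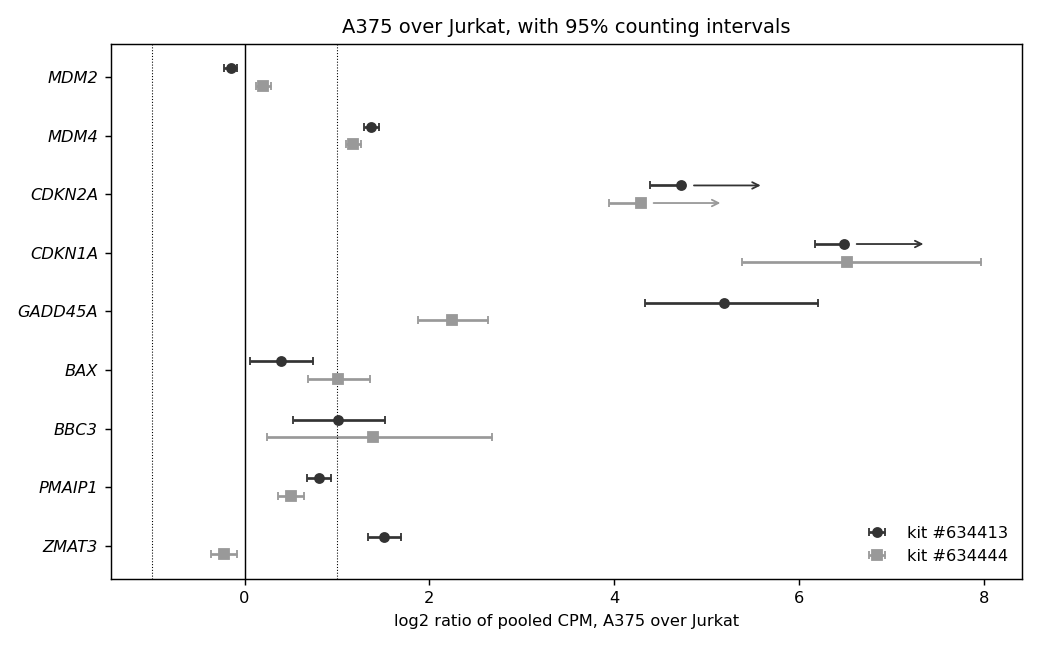
Log2 ratio of pooled CPM, A375 over Jurkat, for the 9 genes with kit #634413 (circles) and kit #634444 (squares). Bars are 95% counting intervals, arrows mark lower bounds set by a floor of 3 counts where no Jurkat well had a count, and dotted lines mark a 2-fold difference. CDKN1A, CDKN2A and GADD45A lie to the right of all other genes with kit #634413, at 4.72 or more.

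MDM2 (chromosome 12, 68808177 to 68845544, plus strand, GRCh38) encodes the ubiquitin ligase of p53 and is itself a p53 target. It was the most even of the 9 between the lines. The RefSeq starts of MDM2 fall into an upstream and an internal promoter, and the internal one is known as the p53-responsive one. It is shown because, among 13 RefSeq windows of 250 bases before the starts of 8 of the 9 genes, only the windows of this internal promoter held a match to the 20-base p53 response element consensus, counted on both strands with no spacer and at most 2 mismatches. The match is in capitals and begins 94 bases before the start. The window is chr12:68808767-68809016 (plus strand, GRCh38.p14) and lies inside the gene, with only its last 15 bases in an annotated exon.
MDM2 internal promoter: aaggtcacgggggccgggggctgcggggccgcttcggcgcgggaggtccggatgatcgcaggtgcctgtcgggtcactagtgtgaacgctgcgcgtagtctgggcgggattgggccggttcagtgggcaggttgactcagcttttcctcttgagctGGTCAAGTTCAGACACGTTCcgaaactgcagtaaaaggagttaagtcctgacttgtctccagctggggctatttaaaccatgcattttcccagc
Of 35116 RefSeq windows of the same length, 0.561% held such a match, and a match in letters does not show that p53 binds there.

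MDM2 had counts in 17 of 21 A375 wells and 18 of 18 Jurkat wells with either kit. With kit #634413, A375 wells ran from 0 to 575 CPM with a median of 138, and Jurkat wells from 19.1 to 495 CPM with a median of 143. With kit #634444, A375 wells ran from 0 to 1291 CPM with a median of 140, and Jurkat wells from 56.6 to 380 CPM with a median of 186. The ranges overlapped with both kits, and with kit #634444 an A375 well lay far above every Jurkat well. The pooled levels were 185 CPM [178, 191] in A375 and 205 CPM [198, 212] in Jurkat with kit #634413, a log2 ratio of -0.15, and 217 CPM [210, 226] against 189 CPM [181, 197] with kit #634444, a log2 ratio of 0.20. The sign thus turned between kits, and without A375 well 6 of kit #634444, which alone gave 31.8% of that group's MDM2 counts, the second ratio was -0.27. Wells are numbered in accession order, which only names them. An unnamed gene on the same strand overlaps MDM2, so reads of the overlap could have been shared between both.

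MDM4 (chromosome 1, 204516379 to 204558120, plus strand) encodes the p53 inhibitor that pairs with MDM2. Its pooled level was higher in A375 with both kits. It had counts in 18 of 21 A375 and 16 of 18 Jurkat wells with kit #634413, and in 16 of 21 and 18 of 18 with kit #634444. Of the A375 wells at or above the depth minimum, 17 of 17 and 16 of 16 had counts of it. With kit #634413, A375 wells ran from 0 to 501 CPM with a median of 245, and Jurkat wells from 0 to 383 CPM with a median of 52.1. With kit #634444, the medians were 264 CPM in A375, with a highest well of 505, and 114 CPM in Jurkat, with wells from 31.8 to 481. Although the ranges overlapped, all but 1 of the 17 A375 wells at or above the depth minimum with kit #634413, and all 16 with kit #634444, lay above the Jurkat median. Pooled, 252 CPM [245, 260] stood against 97.5 CPM [92.7, 103], which is 2.59-fold, and 335 CPM [325, 345] against 148 CPM [141, 155], which is 2.26-fold. The fold fell below 2 with equal weight of all wells, shallow A375 wells included, at log2 ratios of 0.92 and 0.63. Among wells at or above the depth minimum, mean CPM was 238 in A375 against 111 in Jurkat with kit #634413, and 303 against 149 with kit #634444. The estimates put 41.3% and 56.6% of the A375 counts on the transcript MDM4-203, against 23.6% in Jurkat with kit #634444 and 0.1 counts in Jurkat with kit #634413. Assignment among transcripts that share most of their sequence is an estimate, and no interval was computed for it.

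CDKN2A (chromosome 9, 21967752 to 21995301, minus strand) encodes the kinase inhibitor p16 and, from another first exon, ARF. No Jurkat well had a count of it: 0 of 18 wells with each kit. A count of 0 allows a share of wells with a count of up to 16.7% (3 of 18), and the Clopper-Pearson upper limit is 18.5%. In A375 it was detected in 3 of 21 wells with kit #634413, or 14.3% [3.05, 36.3], and in 9 of 21 with kit #634444, or 42.9% [21.8, 66.0]. The median A375 well was therefore at 0 with both kits, and the highest wells reached 39.1 and 71.8 CPM. The pooled A375 levels were 5.03 CPM [3.99, 6.26] and 4.64 CPM [3.55, 5.94], from 80 and 62 counts. Set against a floor of 3 counts over the Jurkat wells, these gave floor-based bounds of 26.4-fold and 19.5-fold. The lower limits of the counting intervals were smaller, at 4.39 and 3.94 on the log2 scale. A375 well 1 held 66.2% of the counts with kit #634413, and without it the bound was 3.28 on the log2 scale in place of 4.72. A375 well 10 held 43.5% with kit #634444, and without it the bound was 3.50 in place of 4.29. The transcripts that received most counts were CDKN2A-212, CDKN2A-208 and CDKN2A-207, in 1 to 4 wells each, so no share of p16 and ARF transcripts is given.

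The genes around CDKN2A were taken as a fixed list of 10. Of the 9 with enough counts, 6 were at least 2-fold higher in A375 with both kits and 1 was higher in Jurkat, against 25.9% and 12.5% of all genes. DMRTA1, 0.47 Mb from CDKN2A, had 3966 and 2773 counts in A375 and none in Jurkat, which makes it at least 1309-fold and at least 873-fold higher. KLHL9, on the other side, had 1120 and 1093 counts in A375 and 1 count in Jurkat with each kit, at log2 ratios of 10.11 [7.63, 15.42] and 10.01 [7.53, 15.32]. MTAP, which encodes methylthioadenosine phosphorylase and is the nearest listed gene on that side, stood at 143 and 140 CPM in A375 and at 4.58 and 5.54 CPM in Jurkat. The Jurkat MTAP counts came from 1 well with kit #634413 and from 4 wells with kit #634444, while A375 had MTAP counts in 18 and 16 of 21 wells. Of the Jurkat MTAP counts, 100% and 71.5% were assigned to the transcript MTAP-209, against 21.8% and 16.7% in A375. Because 2 genes with counts overlap MTAP on the same strand, reads could have been shared with them. CDKN2B-AS1 had 116 and 42.4 counts in A375 against 1 and 2.45 in Jurkat, and IFNE had 11 and 34 against 0. CDKN2B did not exceed 3 counts in any group, so no ratio is given.

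Farther out the picture changed. HACD4, 0.97 Mb away, was lower in A375, at log2 ratios of -4.08 and -2.83. FOCAD, 1.15 Mb away, was at 30.7 and 43.8 CPM in A375 and 40.03 and 38.1 CPM in Jurkat. PLIN2, the lipid droplet coat gene 2.85 Mb away, was higher in A375 at 197 and 241 CPM, against 2.65 CPM in 6 Jurkat wells with kit #634413 and no counts with kit #634444. ELAVL2, 1.78 Mb away on the other side, had 34 counts in A375 and 22.6 in Jurkat with kit #634444, and at most 1 count with kit #634413. Along the arm, genes with few or no Jurkat counts thus stood on both sides of FOCAD and HACD4, which were expressed in Jurkat, and DNA copy number was not measured.

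**Figure D2:**
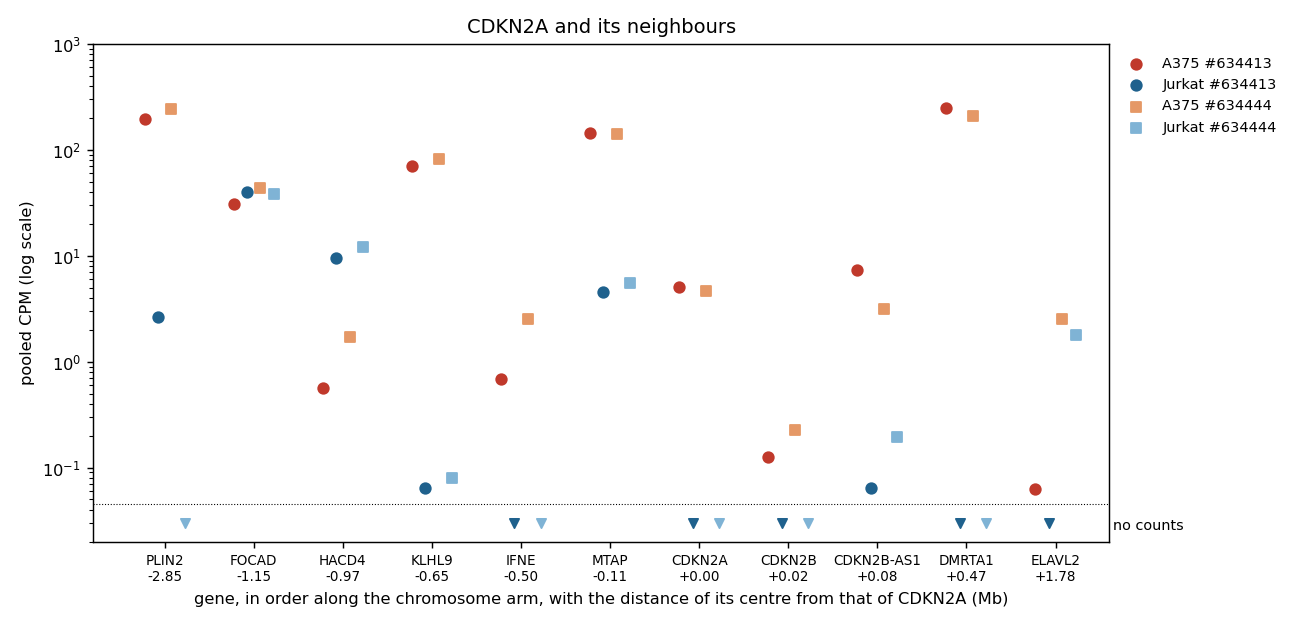
Pooled CPM (log scale) of CDKN2A and 10 genes around it in the order of their distance from CDKN2A in Mb, with circles for kit #634413, squares for kit #634444 and triangles for groups with no counts. KLHL9, MTAP, CDKN2A, CDKN2B-AS1 and DMRTA1 lie lower in Jurkat (blue shades) than in A375 (red and orange), whereas FOCAD lies at 30.7 to 43.8 CPM in all 4 groups.

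CDKN1A (chromosome 6, 36676460 to 36687337, plus strand) showed the largest ratio, or lower bound of it, of the 9 genes with both kits. Its RefSeq window, chr6:36678464-36678713 (plus strand, GRCh38.p14), is printed because the gene is the classical readout of p53 and its window, unlike that of MDM2, held no match to the response element, the best place having 5 mismatches.
CDKN1A promoter: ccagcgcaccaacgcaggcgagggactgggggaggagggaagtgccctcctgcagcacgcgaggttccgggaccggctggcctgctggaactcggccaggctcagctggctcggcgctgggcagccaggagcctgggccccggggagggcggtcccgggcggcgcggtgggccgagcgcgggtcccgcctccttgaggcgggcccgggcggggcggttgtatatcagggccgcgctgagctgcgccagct
The well-known p53 elements of CDKN1A lie farther upstream than this window.

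With kit #634413, CDKN1A had counts in 9 of 21 A375 wells, or 42.9% [21.8, 66.0], and in 0 of 18 Jurkat wells. With kit #634444, it had counts in 10 of 21 A375 wells, or 47.6% [25.7, 70.2], and in 1 of 18 Jurkat wells, or 5.56% [0.14, 27.3]. The median well was at 0 in every group, and at 5.22 CPM among the 16 A375 wells of kit #634444 at depth, so the gene was detected in some A375 cells and missed in others. Wells that detected it in A375 had a median of 23.7 CPM with kit #634413 and 25.3 CPM with kit #634444, and the highest wells reached 138 and 584 CPM. The well at 138 CPM held 12 counts and was below the depth minimum, and the highest at depth with that kit was at 55.4 CPM. The single Jurkat well held 6 counts, at 15.1 CPM. Pooled, A375 stood at 17.05 CPM [15.1, 19.2], at least 89.4-fold higher than Jurkat, with kit #634413, and at 43.4 CPM [39.99, 47.1] against 0.48 CPM [0.17, 1.03], which is 91.4-fold, with kit #634444. A375 well 6 of kit #634444 held 72.1% of that group's CDKN1A counts, and the log2 ratio was 4.75 without it and 6.51 with it. Without the single Jurkat well, A375 was at least 7.47 higher on the log2 scale.

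GADD45A (chromosome 1, 67685201 to 67688334, plus strand) encodes a stress-induced protein that binds cell cycle and repair factors. It was detected in 14 of 21 A375 wells (66.7% [43.0, 85.4]) and 2 of 18 Jurkat wells (11.1% [1.38, 34.7]) with kit #634413. With kit #634444, the counts were 15 of 21 (71.4% [47.8, 88.7]) and 6 of 18 (33.3% [13.3, 59.0]). The median A375 wells were at 9.60 and 23.1 CPM and the highest at 124 and 74.5 CPM, whereas the median Jurkat wells were at 0 and the highest at 8.25 and 47.3 CPM. Among wells at or above the depth minimum, 10 A375 wells lay above every Jurkat well with kit #634413, and 3 did with kit #634444. The pooled A375 levels, 25.4 CPM [23.0, 28.0] and 27.0 CPM [24.3, 29.9], differed by less than their counting intervals between kits, while Jurkat moved from 0.70 CPM [0.35, 1.25] to 5.70 CPM [4.46, 7.18]. The fold between lines was therefore 36.4 with kit #634413 and 4.73 with kit #634444. Jurkat well 15 held 10 of the 11 Jurkat counts with kit #634413, and the log2 ratio was 5.18 with it and 8.53 [6.04, 13.84] without it, when 1 Jurkat count remained.

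BAX (chromosome 19, 48954815 to 48961798, plus strand) forms the mitochondrial pore of apoptosis, and BBC3 (chromosome 19, 47220822 to 47232766, minus strand, the PUMA protein) and PMAIP1 (chromosome 18, 59899996 to 59904305, plus strand, the NOXA protein) encode BH3-only proteins, which promote that step.

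BAX was detected in both lines. It had counts in 10 of 21 A375 and 7 of 18 Jurkat wells with kit #634413 and in 15 of 21 and 8 of 18 with kit #634444. The highest wells were at 99.9 CPM in A375 and 59.3 CPM in Jurkat with kit #634413, and at 39.9 and 55.0 CPM with kit #634444, so the ranges overlapped. The pooled levels were 10.6 CPM [9.09, 12.4] and 8.07 CPM [6.73, 9.60], a log2 ratio of 0.40, and 17.9 CPM [15.7, 20.4] and 8.87 CPM [7.31, 10.7], a log2 ratio of 1.02. Only the second was past 2-fold, it was 0.47 with equal weight of all wells, shallow ones included, and without A375 well 9 the first was -0.38. Among wells at depth, mean CPM with kit #634444 was 18.1 in A375 and 9.96 in Jurkat. Of the Jurkat counts, 27.3% and 25.9% were assigned to the retained-intron transcript BAX-206 in 1 and 2 wells.

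BBC3 was the scarcest of the 9 by TPM in A375. It had 108 and 25 counts in A375 wells, of which 6 and 8 detected it, and 53 and 9 counts in Jurkat wells, of which 1 and 3 did. The median well was at 0 in every group. The log2 ratios, 1.01 [0.53, 1.51] and 1.39 [0.24, 2.67], placed it just past 2-fold. All 53 Jurkat counts with kit #634413 lay in well 11, without which the A375 level was at least 5.04 higher on the log2 scale, and without A375 well 17 the ratio was 0.38. The place of BBC3 among the genes past 2-fold thus depended on 1 A375 well. With kit #634444, Jurkat well 5 held 6 of the 9 Jurkat counts, and the ratio was 2.90 without it.

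PMAIP1 was higher in A375 with both kits but by less than 2-fold. It was detected in 14 of 21 A375 and 12 of 18 Jurkat wells with kit #634413, and in 15 of 21 and 17 of 18 with kit #634444. A375 wells ran up to 227 and 171 CPM with medians of 41.0 and 29.0, and Jurkat wells up to 165 and 162 CPM with medians of 27.9 and 33.1. These medians include the shallow A375 wells. Among wells at or above the depth minimum, the medians were 61.1 CPM in A375 and 27.9 CPM in Jurkat with kit #634413, and 41.9 and 33.1 CPM with kit #634444. PMAIP1 was detected there in 14 of 17 A375 and 12 of 18 Jurkat wells with kit #634413 and in 15 of 16 and 17 of 18 with kit #634444. The thinned shares were 93.3% in A375 and 62.6% in Jurkat with kit #634413, and 92.3% and 86.3% with kit #634444. The lower A375 share over all wells, seen with kit #634444 only, thus did not hold after thinning. Pooled, 89.1 CPM [84.6, 93.9] stood against 51.0 CPM [47.6, 54.7] and 72.8 CPM [68.3, 77.6] against 51.4 CPM [47.5, 55.5], and the log2 ratios were 0.80 and 0.50. With equal weight of all wells, shallow ones included, the second became -0.14. Among wells at depth, mean CPM with kit #634444 was 61.3 in A375 and 51.6 in Jurkat.

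ZMAT3 (chromosome 3, 178960121 to 179072215, minus strand), whose product binds RNA and is induced by p53, was past 2-fold between the lines with 1 kit only. It was detected in 16 of 21 A375 wells with either kit, and in 10 of 18 Jurkat wells with kit #634413 but 18 of 18 with kit #634444. Of the A375 wells at or above the depth minimum, 15 of 17 and 16 of 16 detected it. The Jurkat median well moved from 2.74 CPM with kit #634413 to 68.1 CPM with kit #634444. The A375 medians were 34.5 and 35.2 CPM over all wells, and 57.3 and 49.7 CPM among wells at depth. The pooled Jurkat level likewise moved from 23.2 CPM [20.8, 25.7] to 69.0 CPM [64.5, 73.7], and A375 from 66.1 CPM [62.2, 70.2] to 59.2 CPM [55.2, 63.5]. The log2 ratio between lines was 1.51 with kit #634413 and -0.22 with kit #634444.

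**Figure D3:**
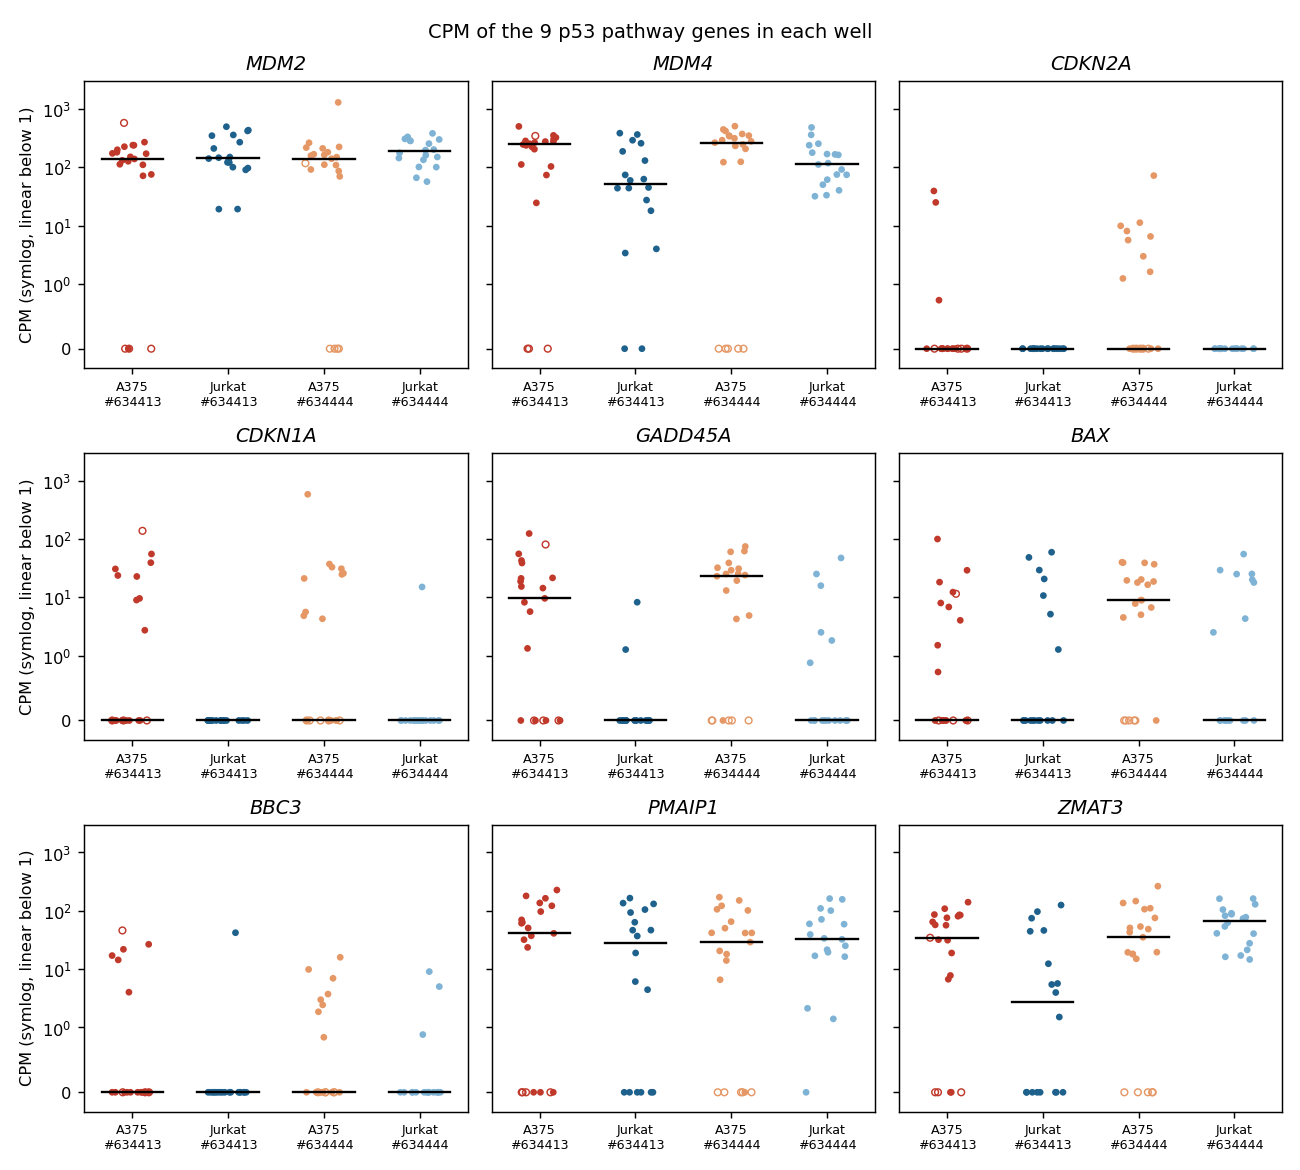
CPM of each of the 9 genes in each well (symmetric log axis, linear below 1 CPM) for the 4 groups of line and kit, with filled points for wells at or above 25% of the median total, open points for shallower wells and a black line at the median well. MDM2 and MDM4 were detected in most wells, while the medians of CDKN1A, CDKN2A and BBC3 lie at 0 in every group.

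Between kits, CDKN1A and BBC3 were past 2-fold in A375, 2 of the 9 genes against 31.8% of all genes, and CDKN1A, GADD45A, BBC3 and ZMAT3 were past 2-fold in Jurkat, 4 of the 9 against 36.7%. CDKN1A was 2.55-fold higher in A375 with kit #634444, and without A375 well 6 its log2 ratio turned from 1.35 to -0.41. The Jurkat CDKN1A difference rested on 6 counts against 0. BBC3 was lower with kit #634444 in both lines, at log2 ratios of -1.86 in A375 and -2.24 in Jurkat. Without Jurkat well 11 of kit #634413, which held all of that group's counts, the Jurkat direction turned to at least 1.78 higher with kit #634444, and without A375 well 17 the A375 ratio was -1.23. Without A375 well 1 or well 9 of kit #634413, CDKN2A and BAX passed 2-fold in A375 as well, at log2 ratios of 1.32 and 1.53. Since different cells were sorted for each kit, kit and cell cannot be told apart.

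On the per-length TPM scale, MDM2 and MDM4 were the most abundant of the 9 in every group and PMAIP1 followed. Among wells at depth, the mean TPM of MDM2 was 109 ± 106 (SD, n = 17 A375 wells) and 88.4 ± 72.1 (SD, n = 18 Jurkat wells) with kit #634413. With kit #634444 it was 117.9 ± 149 (SD, n = 16) and 127 ± 79.1 (SD, n = 18). MDM4 averaged 104 TPM in A375 with either kit, and 34.5 and 45.8 TPM in Jurkat. The mean TPM of ZMAT3, by contrast, was only 6.17 and 6.24 in A375, below CDKN1A at 7.56 and 17.7, although its pooled CPM was higher. TPM divides by transcript length, and single wells weigh on these means. The highest CDKN1A well with kit #634444 was at 162 TPM. The median A375 wells at depth were at 5.46 and 4.21 TPM for ZMAT3 and at 0 and 6.55 TPM for CDKN1A. Neighbours in the order of mean TPM differed by less than 1 SD of their difference over wells, except MDM4 and PMAIP1 in A375 with kit #634444.

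The 9 genes were not found together in every cell. Among the A375 wells with sufficient depth and protein coding share, 5 to 8 of the 9 were detected with kit #634413 (median 7, n = 15) and 5 to 9 with kit #634444 (median 8, n = 16). In Jurkat, 2 to 6 were detected with kit #634413 (median 4, n = 18) and 4 to 8 with kit #634444 (median 5, n = 18). With every well thinned to 179592 counts, the lines kept their order for CDKN1A and GADD45A: CDKN1A was expected in 47.2% of 15 A375 wells and 0 of 18 Jurkat wells with kit #634413, and in 55.5% of 16 and 5.40% of 18 with kit #634444. GADD45A was expected in 76.6% and 5.71% of wells with kit #634413 and in 88.0% and 21.4% with kit #634444. Thinning left out 6 A375 wells with kit #634413 and 5 with kit #634444.

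**Figure D4:**
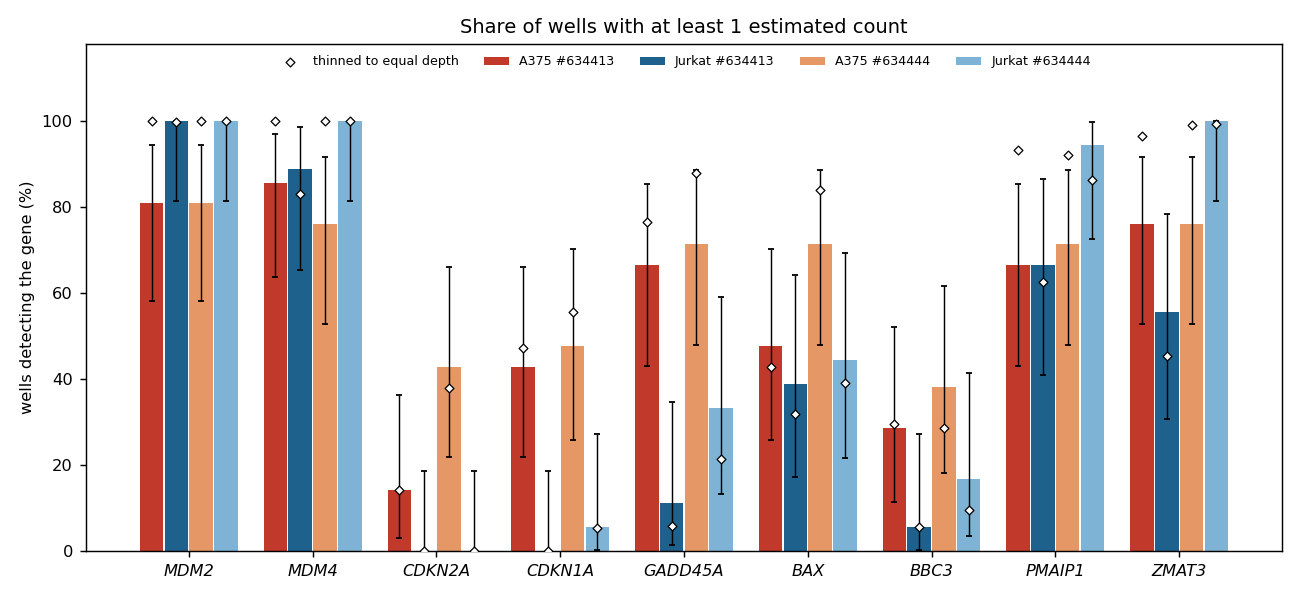
Share of wells (%) with at least 1 estimated count of each gene in the 4 groups, with 95% Clopper-Pearson intervals as bars on the columns and diamonds for the share expected after thinning to 179592 counts a well. CDKN2A is at 0 in both Jurkat groups, and CDKN1A is at 42.9% and 47.6% in A375 against 0 and 5.56% in Jurkat.

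A375 well 6 of kit #634444 stood apart in its p53 targets and was picked out after its values were seen. Among the 21 wells of its group it had the highest CPM of MDM2, CDKN1A and ZMAT3, while well 10 was highest for 4 others of the 9 genes. CDKN1A was at 584 CPM, where the next well was at 37.2, MDM2 was at 1291 CPM, where the next was at 262, and ZMAT3 was at 264 CPM, where the next was at 147. CDKN1A and MDM2 were thus far above the rest of the group, and ZMAT3 by less than 2-fold over the next well. GADD45A and PMAIP1 ranked 9th, MDM4 ranked 15th at 124 CPM and CDKN2A was not detected. Of 33 other p53 targets, 28 were detected in this well, while well 21 of the group detected 32. The group's highest value lay in well 6 for 8 of the 33. Among them were the DNA damage binding gene DDB2 (199 CPM, next well 63.8) and the ribonucleotide reductase gene RRM2B (299.7 CPM, next well 84.4). The polymerase gene POLH, XPC and, by a small margin, FAS (46.8 CPM, next well 43.0) were others. The next most such highest values in any well of the group was 5, the median well had 1, and in the other groups the most in any well was 4 or 5. The share of all genes with their highest value in well 6 was not computed. The 11 proliferation genes summed to 22.3 CPM in well 6, beside a median of 295 CPM and a range from 2.81 to 5634 CPM over the group's wells at depth. The well held 717498 counts without ribosomal DNA and spikes, beside a group median of 596051.

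Over the wells at depth with a sufficient protein coding share, Spearman's rho of CDKN1A with MDM2 was 0.49 in 15 A375 wells with kit #634413 and 0.62 in 16 with kit #634444. With the summed CPM of the other p53 targets, however, CDKN1A gave -0.27 and 0.60, and MDM2 gave -0.57 and 0.56. These correlations over wells of 1 sample are descriptions, and the wells share library preparation and differ in depth. MDM2 and CDKN1A themselves gave 0.66 and 0.55 with depth in the first set of wells. Over all 69 wells at depth, the protein coding genes most like MDM2 were PTTG1 (rho 0.45) and POLR3GL (0.45), those most like MDM4 were DNAH1 (0.69) and USP15 (0.65), and those most like GADD45A were TSC22D1 (0.76) and MDK (0.75). For PMAIP1 they were EIF2S2 (0.59) and SLC20A1 (0.54), for ZMAT3 RALGPS2 (0.56) and MTFR1L (0.54), and for BAX COMMD8 (0.50) and TRMT9B (0.48). Both lines entered these values, so a gene that differs between the lines ranks high.

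Among 21 relatives and regulators of p53 with enough counts, 3 were at least 2-fold higher in Jurkat with both kits and 15 were neither. The 3 were the deubiquitinase gene USP7 and the checkpoint kinase genes CHEK1 and CHEK2. TP73 and the kinase gene HIPK2 were among those higher in A375. The shares over all genes were 25.9% higher in A375 and 12.5% higher in Jurkat. HIPK2 was at 419.98 and 432 CPM in A375 against 127 and 116 CPM in Jurkat. TP73, which encodes a p53 relative, had 106 and 45 counts in A375 and none in Jurkat. USP7 was at 186 and 156 CPM in A375 against 580.2 and 475 CPM in Jurkat.

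Of 32 genes with enough counts in a list of other p53 targets, 11 were at least 2-fold higher in A375 with both kits, 5 were higher in Jurkat and 16 were neither. Of all genes, 25.9% were higher in A375 and 12.5% in Jurkat. The median log2 ratios of the list were 0.83 and 0.67, beside 0.42 and 0.33 for all genes. The summed CPM of the 33 listed genes was closer, at 1030 in A375 and 1136 in Jurkat with kit #634413, and 1056 and 1046 with kit #634444. PLK2, a stress kinase gene, had 1030 and 791 counts in A375 and none in Jurkat. The death receptor gene TNFRSF10A stood at 51.1 and 40.5 CPM in A375 against 1 count and none in Jurkat, and its relative TNFRSF10B at 133 CPM in A375 with both kits against 25.04 and 19.7 CPM. SESN2, which restrains growth signaling under stress, was 8.19-fold and 6.12-fold higher in A375. CMBL and EDA2R were higher in A375 as well. In the other direction, CYFIP2 was at 18.2 and 9.65 CPM in A375 and at 560.2 and 399.95 CPM in Jurkat, and SUSD6, TP53INP1, FDXR and TRIAP1 were between 2.36-fold and 4.86-fold higher in Jurkat. Targets of p53 were thus found on both sides, as were genes in general.

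**Figure D5:**
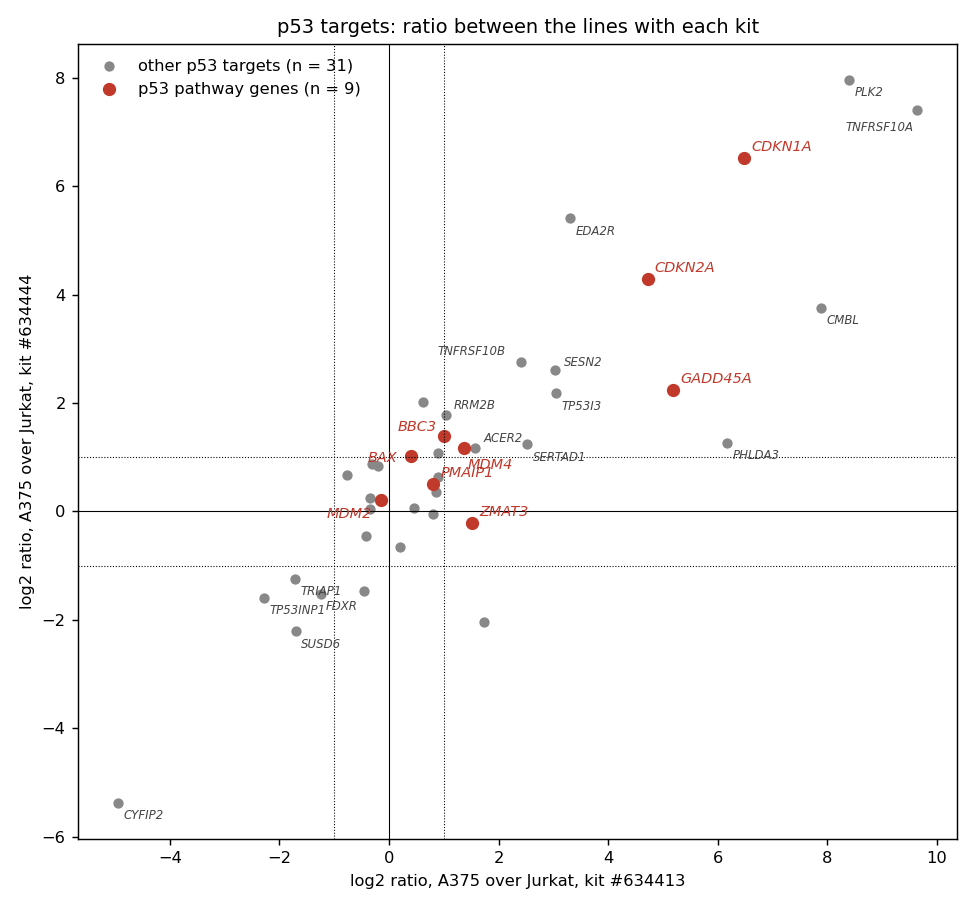
Log2 ratio of pooled CPM, A375 over Jurkat, with kit #634413 (horizontal) and kit #634444 (vertical) for the 9 p53 pathway genes (red) and 31 other p53 targets with a ratio for both kits (grey, named where past 2-fold in the same direction with both). CDKN1A, CDKN2A and GADD45A lie in the upper right quadrant, as do PLK2 and TNFRSF10A, whereas CYFIP2 lies in the lower left at -4.94 and -5.37.

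A further list held cyclins, cyclin-dependent kinases, inhibitors of these kinases, and RB family and E2F genes. Of its 16 genes with enough counts, 8 were higher in Jurkat with both kits and 2 in A375, against 12.5% and 25.9% of all genes, and 6 were neither. CCND1, encoding cyclin D1, was at 549.6 and 411 CPM in A375 and had no counts in Jurkat, and CDKN1C was the other one higher in A375. CDK6 was at 312 and 359 CPM in A375 against 2779.6 and 3507 CPM in Jurkat, and CCND3, RB1, CCND2, CDKN2C and E2F1 were also higher in Jurkat. Of 11 proliferation genes, 8 were higher in Jurkat with both kits and none in A375, against 12.5% and 25.9% of all genes. MKI67 was at 181 and 310.2 CPM in A375 against 1487 and 1302 CPM in Jurkat, BUB1 was 11.3-fold and 7.38-fold higher in Jurkat, and PCNA, MCM2, MCM5 and CCNA2 were higher there too. The part of these differences in the CDKN1A values was not tested. The 4 reference genes SDHA, YWHAZ, TBP and HPRT1 had log2 ratios from -2.07 to -0.08, and HPRT1 alone was past 2-fold with both kits.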

How the data were processed

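SMARTer single cell total RNA sequencing was applied to 78 FACS-sorted wells (2 cell lines, 2 kits). The authors trimmed reads with cutadapt and quantified them with Kallisto 0.43.1 in strand-specific mode on Ensembl release 91 transcripts. For quality control, they also aligned reads to hg38 with STAR 2.5.3. The deposited tables hold an estimated count and a TPM value per transcript, both computed by the authors. Estimated counts are not whole for transcripts that share sequence. Here transcripts were assigned to GENCODE release 44 genes (GRCh38). Of 200206 Ensembl transcripts 195850 matched, and the other 4356 (4.59% of counts) were kept as features of their own. Ribosomal DNA and spike sequences (11.9% of counts) were left out of CPM. No pair of the 3003 pairs of wells had identical counts.

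Groups were line by kit, as labelled. Pooled CPM was the group's summed counts over its total. A gene was examined for a difference of at least 2-fold when it had at least 20 counts over the 4 groups, and both kits had to show the same direction. No p-value was computed, since each group is 1 sample. A group at 0 was set to 3 counts over the group. Ratios given as at least a value rest on this floor and can exceed the lower limit of the counting interval. One count detected a gene in a well. Thinned shares are expected values at 179592 counts, 25% of the median well without ribosomal DNA and spikes. The named genes are the 9 genes, up to 6 genes in each direction of each list by the smaller of both log2 ratios, all CDKN2A neighbours, the reference genes, and the 2 protein coding genes most correlated with each gene detected in at least 50% of wells at depth. A further gene of this rule and some primer sequences are not reported here. The genes and lists were chosen with earlier results of these data known. Promoters came from RefSeq (GRCh38.p14), and GADD45A had no entry there. Values were computed with numpy 2.4.6, scipy 1.17.1 and pandas 2.3.3 under Python 3.11.15, by code tested on simulated counts.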

Additional observations from a re-analysis of the deposited data

How the results depend on the processing

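The counts of genes past 2-fold were recomputed with other denominators, weights, filters and folds, and with each well left out. At 4-fold the 9 genes higher in A375 with both kits fell from 5 to 3, the other p53 targets higher in A375 numbered 7 in place of 11 and those higher in Jurkat 1 in place of 5, all genes 4144 in place of 6538 and 1447 in place of 3163, and between kits 0 of the 9 genes passed in A375 (2 at 2-fold) and 2 in Jurkat (4 at 2-fold). With a minimum of 100 counts, all genes higher in A375 numbered 4269, since fewer genes were tested. With the 4 reference genes as denominator, 3 other p53 targets were higher in Jurkat, and mean TPM left 1 gene past 2-fold between kits in A375. Leaving out each well in turn, between 1 and 3 were past 2-fold there and between 4 and 5 of the 9 genes were higher in A375. The other alternatives, with 0 of the 9 genes higher in Jurkat in every one, stayed within 1.5 times. Reference genes, mean CPM and mean TPM moved the median log2 ratio of all genes by 0.34 and 0.48, by -0.28 and -0.33, and by -0.18 and -0.16 with kits #634413 and #634444. The sign of MDM2, BAX, PMAIP1 or ZMAT3, none of them past 2-fold with both kits, changed under some of these for at least 1 kit. Without the 9 shallow wells and the 2 with few protein coding counts, a choice made after seeing the data, 4 of the 9 genes were higher in A375, since BBC3 fell to a log2 ratio of 0.99 with kit #634413. No paired analysis was possible because the labels give no replicate numbers. Low counts limit CDKN2A, CDKN1A and BBC3: absence from a well was not distinguishable from a missed molecule, no spike set an absolute scale, and RNA content per cell is unknown.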
